A study of Homo sapiens with 12 samples.

Results

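The metallothionein genes named for this report were MT1E, MT1F, MT1G, MT1X and MT2A, taken by gene symbol from the deposited expression table. Of these 5 symbols, 4 had a row among the 11529 genes of the table, and MT1G was not analysed here. RNA was sequenced from the established human triple-negative breast cancer (TNBC) cell lines MDA-MB-231 and MDA-MB-468, each as control and as SMARCA4 knock-out (KO), with 3 samples in each of the 4 groups. The KO cells received a lentiviral CRISPR/Cas9 vector with 1 guide RNA against exon 4 of SMARCA4, the ATPase of the SWI/SNF chromatin remodelling complex, and were selected with puromycin as a pool, so that a KO sample can hold unedited cells. The labels give the controls as wild type in 1 field and as control in another, and the study describes a nontargeting CRISPR/Cas9 vector for the control cells of its protein blots. Whether the sequenced controls carried that vector, and whether the 3 samples of a group came from separate cultures, is not given for these samples in the sources used here, so the p-values measure the spread between these samples, which may be technical. No metal, platinum drug or hormone treatment is given in the labels for any group. Values are FPKM, the fragments of a gene scaled to its transcript length and to the mapped fragments of the sample, and fold changes and differences are on the log2(FPKM + 1) scale unless stated.

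Metallothioneins are small cysteine-rich proteins that bind zinc, copper and cadmium, and they can also bind platinum drugs such as cisplatin. Their genes form a cluster on the long arm of chromosome 16 and are switched on by metal ions through MTF1, a zinc-finger transcription factor that binds metal response elements in their promoters, and by glucocorticoid hormone. MT2A is usually the most abundant human family member, while the MT1 genes encode closely related isoforms. The comparisons below ask whether loss of SMARCA4 changed this family in either line, and how the family differed between the lines.

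The 4 analysed genes lie on the forward strand of chromosome 16 within 75.61 kb in the GRCh37 build, to which the deposited values were aligned as hg19. MT2A spans bases 56642496 to 56643409, MT1E spans 56659387 to 56661024, MT1F spans 56691643 to 56694610, and MT1X spans 56716382 to 56718108. The annotated transcripts of MT2A, MT1F and MT1X have 3 exons and are 401, 425 and 404 bases long, and the selected transcript of MT1E has 2 exons and 746 bases, while a further MT1E transcript has the same 183-base coding sequence length as the others. These coding sequences were 88.5% identical between MT1F and MT1X, the least alike pair of members, and 92.4% identical between MT2A and MT1X. Of all stretches of 50 bases in a transcript, 16.6% in MT1X, 10.3% in MT1E, 6.12% in MT1F and 4.55% in MT2A occurred unchanged in the transcript of another metallothionein gene or pseudogene, and 0 of the stretches of 100 bases did. Reads that lie wholly within shared stretches would be divided between genes by the authors' estimation software. Part of each level can therefore depend on that division. MT1X had the largest shared percentage, while MT1E, scored on its longer transcript, had more shared stretches (72 against 59 in MT1X). Read length is not given in the sources used here, so the size of this part is unknown. An annotated long non-coding RNA also overlaps MT1X on the same strand, and its reads cannot be told apart from those of MT1X where they overlap.

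Promoters are shown to lay out the letters of the metal response element, the motif bound by MTF1, in the members found in the promoter table. The sequences are from RefSeq (GRCh38.p14, forward strand), run from 250 bases before to 50 bases after the annotated transcript start, and carry in capitals each match to TGCACNC or TGCGCNC on either strand. These are MT2A and MT1X, 2 of the 4 analysed members, and the promoters of MT1E and MT1F are not shown. The MT2A promoter is chr16:56608334-56608633 and the MT1X promoter is chr16:56682220-56682519.
MT2A: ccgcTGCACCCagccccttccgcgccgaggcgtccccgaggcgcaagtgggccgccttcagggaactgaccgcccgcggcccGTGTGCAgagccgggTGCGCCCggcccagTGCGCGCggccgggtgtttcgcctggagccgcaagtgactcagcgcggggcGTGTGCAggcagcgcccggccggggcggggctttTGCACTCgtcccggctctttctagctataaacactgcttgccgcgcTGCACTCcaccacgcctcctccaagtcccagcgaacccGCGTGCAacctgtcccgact
MT1X: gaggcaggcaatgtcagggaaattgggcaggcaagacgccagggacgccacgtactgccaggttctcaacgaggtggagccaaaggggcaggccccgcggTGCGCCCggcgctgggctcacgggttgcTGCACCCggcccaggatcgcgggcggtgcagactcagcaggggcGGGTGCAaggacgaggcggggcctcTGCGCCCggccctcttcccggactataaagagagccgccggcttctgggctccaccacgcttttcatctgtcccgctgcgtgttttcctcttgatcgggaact
The MT2A promoter held 8 matches and the MT1X promoter 4, with no match overlapping another. Among 35116 RefSeq promoters of the same length, 29.6% had at least 1 match, 0.601% had at least 4 and 0.0199% had at least 8. Both also held 1 copy of TATAAA on the sense strand, upstream of the start. At least 1 copy anywhere on the sense strand was found in 7.33% of all promoters. The MT2A promoter was 72.0% G or C with 37 CG dinucleotides, and the MT1X promoter was 67.0% G or C with 26. A match describes letters only and does not show that MTF1 was bound in these cells.

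SMARCA4 RNA was lower in every KO than every control sample of its line, as for 13.5% (MDA-MB-468) and 19.4% (MDA-MB-231) of all genes. In MDA-MB-468 cells it was 96.86, 97.37 and 101.31 FPKM in the controls and 39.67, 43.53 and 47.68 FPKM in the KO samples (log2 FC -1.16 ± 0.08 SE, adjusted p = 0.0137). In MDA-MB-231 cells it was 67.53, 71.51 and 67.02 FPKM in the controls and 21.02, 23.85 and 22.57 FPKM in the KO samples (log2 FC -1.57 ± 0.06 SE, adjusted p = 0.00143). The KO samples thus kept SMARCA4 RNA, and frameshift edits need not lower RNA, so these values check the labels and do not measure loss of protein. The MDA-MB-468 call was lost without control sample 2, control sample 3 or KO sample 2, where the adjusted p was 0.0696, 0.0565 and 0.0748. Correlations of all genes were 0.989 to 0.995 between samples of a group and 0.665 to 0.701 between the lines. The epithelial genes EPCAM and CDH1 were lower in control MDA-MB-231 than in control MDA-MB-468 cells by log2 differences of -4.35 and -5.16, and the mesenchymal gene VIM was higher by 8.53. Of 10 breast epithelial and cell line markers 8 were in the table, and the estrogen and progesterone receptor genes ESR1 and PGR were not analysed here. Of 9 markers of blood, endothelial and fibroblast cells only CD68, a lysosomal gene also expressed by macrophages, was in the table, at 92.71 to 101.37 FPKM in the MDA-MB-231 controls and 1.19 to 1.93 FPKM in the MDA-MB-468 controls. Their part in the differences between the lines was not tested.

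**Figure D1:**
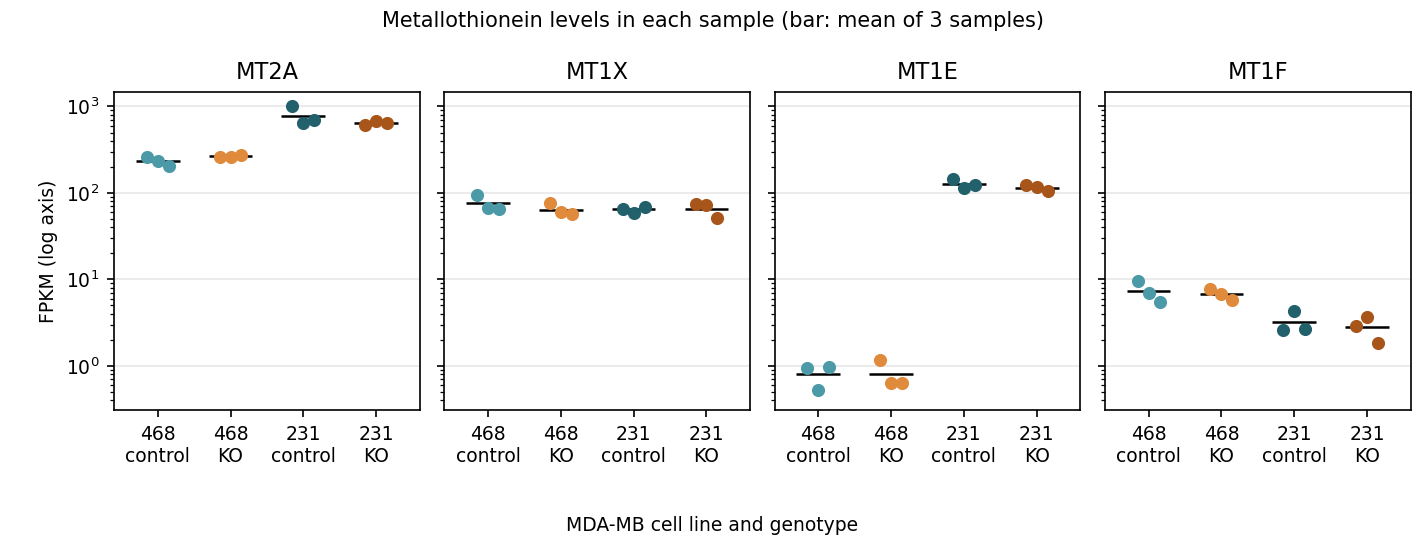
FPKM of MT2A, MT1X, MT1E and MT1F in each of the 12 samples on a log axis, by cell line and genotype, with a bar at the mean of the 3 samples of a group. MT1E lies near 1 FPKM in all 6 MDA-MB-468 samples and above 100 FPKM in all 6 MDA-MB-231 samples, while control and KO points of a line lie close together.

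MT2A was the most abundant member in all 12 samples. In control MDA-MB-468 cells it was 259.41, 232.61 and 202.97 FPKM, and in KO MDA-MB-468 cells 263.9, 259.67 and 273.75 FPKM. In control MDA-MB-231 cells it was 1005.81, 644.7 and 700.91 FPKM, and in KO MDA-MB-231 cells 608.3, 677.71 and 652.31 FPKM. Every MDA-MB-231 sample lay above every MDA-MB-468 sample, and the first MDA-MB-231 control stood above the other 5 samples of its line. By mean FPKM, MT2A ranked 113 of 11529 genes in control MDA-MB-231 cells and 395 in control MDA-MB-468 cells. In the order of group means, the MDA-MB-231 controls (784 ± 194 FPKM, SD, n = 3) came before the MDA-MB-231 KO samples (646 ± 35.1), with overlapping ranges. The MDA-MB-468 KO samples (266 ± 7.22) and the MDA-MB-468 controls (232 ± 28.2) came last, with ranges that did not overlap but a difference that did not pass the test.

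MT1X, one of the MT1 isoforms, was the member with the most even level across the 4 groups. It was 93.75, 66.94 and 65.95 FPKM in control and 76.66, 59.51 and 56.51 FPKM in KO MDA-MB-468 cells. It was 65.24, 59.11 and 69.1 FPKM in control and 74, 72.23 and 50.66 FPKM in KO MDA-MB-231 cells. The group means lay between 64.2 and 75.5 FPKM, and the range of each group overlapped that of every other.

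MT1E separated the lines. It was 0.94, 0.52 and 0.97 FPKM in control and 1.16, 0.64 and 0.64 FPKM in KO MDA-MB-468 cells. It was 145.71, 113.01 and 124.27 FPKM in control and 123.49, 116.47 and 106.11 FPKM in KO MDA-MB-231 cells. It thus ranked 792 of 11529 genes by mean FPKM in control MDA-MB-231 cells and 10912 in control MDA-MB-468 cells. Within each line the control and KO ranges overlapped. The table keeps genes with a mean and an SD of at least 1 FPKM over the samples, and MT1E, with group means of 0.810 and 0.813 FPKM in MDA-MB-468 cells, met these limits through the MDA-MB-231 samples.

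MT1F was the least abundant member in MDA-MB-231 cells and, unlike MT1E and MT2A, was higher in MDA-MB-468 cells. It was 9.68, 6.92 and 5.41 FPKM in control and 7.67, 6.73 and 5.71 FPKM in KO MDA-MB-468 cells. It was 2.6, 4.26 and 2.67 FPKM in control and 2.92, 3.69 and 1.82 FPKM in KO MDA-MB-231 cells. The 6 samples of a line overlapped between genotypes, and the lowest MDA-MB-468 sample lay above the highest MDA-MB-231 sample. MT1A, a family member outside the 5 symbols, was listed at 0 in all 6 MDA-MB-468 samples and lay between 4.05 and 5.79 FPKM in the 6 MDA-MB-231 samples.

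Summed over the 4 genes, metallothionein RNA was 315 ± 44.8 FPKM in control and 338 ± 11.4 FPKM in KO MDA-MB-468 cells (SD, n = 3). It was 979 ± 211 FPKM in control and 830 ± 34.8 FPKM in KO MDA-MB-231 cells. The mean sum of the MDA-MB-231 controls was thus 3.10 times that of the MDA-MB-468 controls, and the KO mean was 1.07 times the control mean in MDA-MB-468 and 0.848 times in MDA-MB-231 cells. MT2A made up 71.3% to 75.8% of the sum in the MDA-MB-468 controls and 78.1% to 82.5% in the MDA-MB-231 controls. The remainder was composed differently. MT1X gave 21.8% to 25.8% of the sum in the MDA-MB-468 controls and 5.35% to 7.70% in the MDA-MB-231 controls, while MT1E gave 0.169% to 0.352% and 11.9% to 13.9%. These sums cannot separate a change of RNA per cell from a change in the share of cells that make it.

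**Figure D2:**
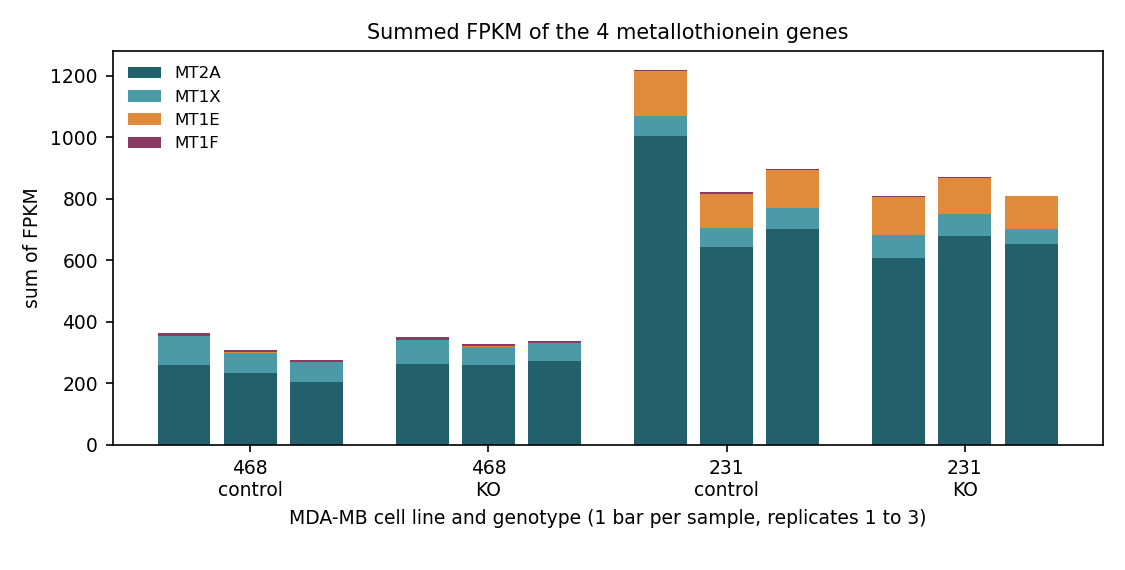
Summed FPKM of MT2A, MT1X, MT1E and MT1F, 1 stacked bar per sample, grouped by cell line and genotype. The MDA-MB-468 sums lie between 275 and 364 FPKM and the MDA-MB-231 sums between 809 and 1219 FPKM, and the MT1E layer is visible in the MDA-MB-231 bars alone.

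In MDA-MB-468 cells, 0 of the 4 metallothionein genes passed the test of KO against control, where 2.14% of all 11529 genes were differentially expressed genes (DEGs, limma adjusted p under 0.05 and absolute log2 FC over 0.5), 1.33% higher and 0.815% lower. MT2A had a log2 FC of 0.20 ± 0.10 SE (95% interval -0.03 to 0.44, adjusted p = 0.251). All 3 KO samples lay above all 3 controls, as they did for 17.5% of all genes, while in either direction the groups did not overlap for 31% of all genes. MT1X had a log2 FC of -0.22 (95% interval -0.67 to 0.22, adjusted p = 0.485), MT1F of -0.09 (-0.59 to 0.41, adjusted p = 0.823) and MT1E of 3.31e-05 (-0.38 to 0.38, adjusted p = 1). The median log2 FC of the 4 genes was -0.04, and that of all genes was 0.02. The interval of MT2A stays within the 0.5 limit, while those of MT1X and MT1F reach past it. MT1E lies near 1 FPKM in this line, where the added 1 compresses changes. Its interval therefore allows larger fold changes of FPKM than its ends show. Without control sample 3 the MT2A log2 FC was 0.11. No label states that KO and control samples are paired. Matched by the replicate number of the title, MT1X was lower in the KO sample of each of the 3 numbers. With these numbers as a block its unadjusted limma p was under 0.05, and its adjusted p was 0.0982. The p numbers of the sample descriptions match the samples of this line otherwise. Without the block, 0 of the 4 genes had an unadjusted limma p under 0.05, against 2899 of all genes.

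In MDA-MB-231 cells, 0 of the 4 genes passed the test, where 3.7% of all genes were DEGs, 2.39% higher and 1.31% lower. MT2A had a log2 FC of -0.25 ± 0.17 SE (95% interval -0.68 to 0.17, adjusted p = 0.371), with 2 of the 3 KO samples inside the range of the controls. Without control sample 1, the highest of the line, it was -0.059. The groups overlapped for all 4 members, while they did not for 36% of all genes (16.6% higher and 19.4% lower). MT1E had a log2 FC of -0.14 (-0.41 to 0.13, adjusted p = 0.434), MT1F of -0.14 (-0.72 to 0.44, adjusted p = 0.731) and MT1X of 0.0079 (-0.39 to 0.40, adjusted p = 0.988). The median of the 4 was -0.14, and that of all genes was -0.0064. The intervals of MT1E and MT1X stay within the 0.5 limit on both sides, while those of MT2A and MT1F reach past it towards lower values. At an unadjusted limma p under 0.05, 0 of the 4 genes passed, against 3596 of all genes.

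The KO change of MT2A had opposite signs in the lines, and the difference, MDA-MB-468 change minus MDA-MB-231 change, was 0.46 ± 0.20 SE (95% interval 0.017 to 0.90). Without MDA-MB-231 control sample 1 the difference was 0.26. It did not pass the test over all genes (limma adjusted p = 0.145), where 8.71% of genes did (4.29% higher and 4.41% lower), and 0 of the 4 members passed. Of the genes that passed, 49.3% had the higher difference in MDA-MB-468 cells, and 39.2% did when samples were scaled to their 75th percentile. The difference was 0.14 for MT1E (-0.28 to 0.56, adjusted p = 0.662), 0.05 for MT1F (-0.63 to 0.74, adjusted p = 0.933) and -0.23 for MT1X (-0.77 to 0.30, adjusted p = 0.549). Their signs depended on the sample left out or the scaling for MT1E and MT1F.

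**Figure D3:**
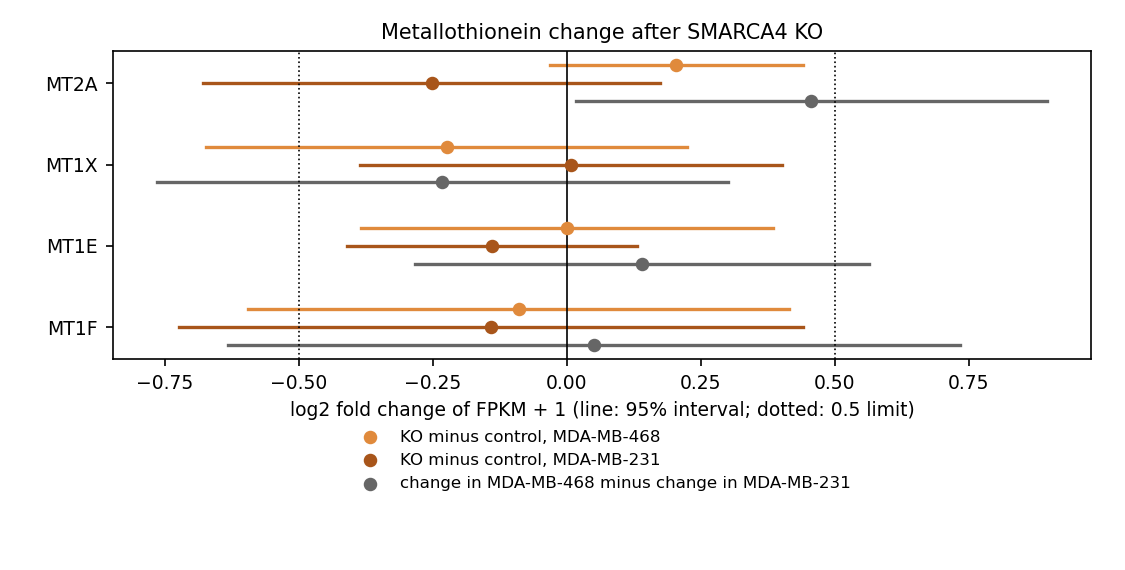
log2 fold change of FPKM + 1 after SMARCA4 KO for each metallothionein gene, as the point estimate with its 95% interval, in each line and as the difference between the lines. The dotted lines mark the 0.5 limit, and the MT2A difference (0.46) is the single estimate whose interval leaves out 0.

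Between the control cells MT2A and MT1F passed the test, where 64.1% of all genes passed (31.4% higher and 32.7% lower in MDA-MB-231). Passing was thus common, and MT1E is not counted here. MT1E was higher in MDA-MB-231 controls by a log2 difference of 6.15, a description given with no p because MT1E is in the table through its high level in MDA-MB-231 cells. Its size depends on the added 1, and with 0.1 added to FPKM in its place the difference was 7.17. MT2A was higher by 1.73 ± 0.17 SE (1.33 to 2.13, adjusted p = 3.20e-05). MT1F was lower by a log2 difference of -0.99 ± 0.21 SE (-1.48 to -0.50, adjusted p = 0.00269), and MT1X differed by -0.21 ± 0.14 SE (-0.54 to 0.12, adjusted p = 0.200), which did not pass. Neighbouring members of 1 cluster thus differed in the size and the direction of the line difference, beside a median absolute difference of 0.73 over all genes.

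Genes on either side of the cluster were lower in MDA-MB-231 cells. Of 9 flanking genes fixed by position, 7 were in the table. All 7 passed the test as lower in the MDA-MB-231 controls, as did 32.7% of all genes. Their median log2 difference was -0.97. NUDT21, a subunit of an RNA 3′ end processing factor, was lower by -1.41 ± 0.08 SE, BBS2, a subunit of a ciliary transport complex, by -1.25 ± 0.10 SE, and HERPUD1, an endoplasmic reticulum stress gene, by -1.19 ± 0.08 SE. MT1E, MT2A and MT1X therefore had differences above those of all 7 flanking genes, and MT1F lay within their range. DNA copy number was not measured in these files, and its part in the shared direction of the flanking genes was not tested.

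GNAO1, a G protein subunit gene that starts 417 kb before MT2A, was the single flanking gene that rose after SMARCA4 KO. It was 11.64, 11.42 and 10.72 FPKM in control and 17.32, 17.4 and 18.1 FPKM in KO MDA-MB-468 cells (log2 FC 0.60 ± 0.05 SE, adjusted p = 0.0145). It was 4.97, 5.42 and 5.43 FPKM in control and 7.99, 9 and 8.64 FPKM in KO MDA-MB-231 cells (log2 FC 0.60 ± 0.06 SE, adjusted p = 0.00945). The groups did not overlap in either line. The other 6 flanking genes in the table did not pass in either line, where 2.14% (MDA-MB-468) and 3.7% (MDA-MB-231) of all genes passed. The GNAO1 call was lost in MDA-MB-468 cells in each fit with a sample left out other than KO sample 1 (adjusted p up to 0.0814), and in MDA-MB-231 cells without KO sample 2 (adjusted p = 0.0507).

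Among the regulators and transporters of zinc, 1 gene passed the KO test in 1 line. MTF1, the metal sensor of the family, was 13.85, 13.93 and 14.42 FPKM in control and 11.06, 12.34 and 13.42 FPKM in KO MDA-MB-468 cells (log2 FC -0.19 ± 0.07 SE, adjusted p = 0.195). In MDA-MB-231 cells it was 4.34, 5.06 and 4.13 FPKM in control and 4.5, 4.03 and 4.33 FPKM in KO samples (log2 FC -0.06 ± 0.08 SE, adjusted p = 0.666). The KO range lay below the controls in the first line, as it did for 13.5% of all genes, and overlapped them in the second. Neither change passed the test. Between the controls MTF1 was lower in MDA-MB-231 by a log2 difference of -1.45 ± 0.08 SE (adjusted p = 1.08e-06), in the line where MT2A and MT1E were higher and MT1F was lower. SLC30A1, a zinc exporter of the cell membrane and itself a target of MTF1, had a log2 FC of 0.05 in MDA-MB-231 cells, a log2 FC of -0.16 in MDA-MB-468 cells and a control difference of 0.06, none of which passed (adjusted p = 0.637, 0.454 and 0.643).

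Of 10 zinc exporters 5 were in the table, and 0 passed the KO test in either line. Of 14 zinc importers 11 were in the table, and 1 of them passed in MDA-MB-231 cells, against 0 in MDA-MB-468 cells. That gene, SLC39A8, which carries zinc and manganese into the cell, was 18.29, 17.72 and 17.28 FPKM in control and 10.34, 9.46 and 10.07 FPKM in KO MDA-MB-231 cells (log2 FC -0.78 ± 0.05 SE, adjusted p = 0.00513). It was 9.63, 9.92 and 10.17 FPKM in control and 9.61, 8.22 and 7.9 FPKM in KO MDA-MB-468 cells (log2 FC -0.19 ± 0.08 SE, adjusted p = 0.198). Its KO changes differed between the lines (difference 0.59, adjusted p = 0.00436), where 8.71% of all genes passed. SLC39A11 also passed there, with the opposite sign (difference -1.05, adjusted p = 0.0102), and the remaining importers did not. The SLC39A11 log2 FC was -0.75 for KO of MDA-MB-468 cells (adjusted p = 0.0628). For MDA-MB-231 cells it was 0.30 (adjusted p = 0.205), and neither change passed. In the control comparison, 7 of the 11 importers passed as higher and 1 as lower in MDA-MB-231 cells. Of all genes 31.4% passed as higher and 32.7% as lower, 64.1% in either direction, and the split of the importers was not tested. The largest differences were those of SLC39A10 (2.40), SLC39A11 (-2.13) and SLC39A13 (1.93), and 1 exporter, SLC30A6, was lower (-0.64).

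Copper handling genes, which serve the other physiological metal bound by metallothioneins, numbered 11 in the table of 13 listed, and 0 passed the KO test in either line. Between the controls 2 were higher and 1 was lower in MDA-MB-231 cells, beside the 64.1% of all genes that passed, namely SLC31A2, a copper transporter (0.86), and the cytochrome oxidase assembly genes COX11 (0.64) and COX17 (-0.63). Of 11 genes of the metal and oxidative stress response 9 were in the table. The KO test called 1 in each line, beside the same 2.14% and 3.7% of all genes. NQO1, a quinone reductase, was 311.04, 340.21 and 357.87 FPKM in control and 196.25, 212.47 and 180.72 FPKM in KO MDA-MB-468 cells (log2 FC -0.77 ± 0.08 SE, adjusted p = 0.0193). TXNRD1, the cytosolic thioredoxin reductase, was 183.05, 198.66 and 196.55 FPKM in control and 273.73, 308.07 and 275.86 FPKM in KO MDA-MB-231 cells (log2 FC 0.57 ± 0.07 SE, adjusted p = 0.0121). The groups did not overlap for either gene in the line named. All KO samples lay below all controls for 13.5% of all genes in MDA-MB-468 cells, and above them for 16.6% in MDA-MB-231 cells. The NQO1 call was lost in each fit with a sample left out other than KO sample 1 (adjusted p up to 0.101), and the TXNRD1 call without KO sample 2 (adjusted p = 0.0510). Between the controls 2 of the 9 were higher and 5 lower in MDA-MB-231 cells. Of all genes 31.4% passed as higher and 32.7% as lower, 64.1% in either direction. GCLC, a subunit of the enzyme that limits glutathione synthesis, was at -2.06, NQO1 at -1.16 and HMOX1, the inducible heme oxygenase, at -1.09.

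The glucocorticoid receptor and its targets, the other known route to metallothionein induction, had 8 of 10 genes in the table. SGK1, a kinase gene induced by glucocorticoids, was the single one to pass, at 3.44, 3.17 and 4.04 FPKM in control and 8.44, 11.93 and 13.55 FPKM in KO MDA-MB-468 cells (log2 FC 1.42 ± 0.17 SE, adjusted p = 0.0247). In MDA-MB-231 cells it was 27.31, 14.87 and 14.21 FPKM in control and 18, 9.41 and 14.32 FPKM in KO samples (log2 FC -0.39 ± 0.32 SE, adjusted p = 0.458), with overlapping ranges. The SGK1 call was likewise lost unless KO sample 1 was the one left out (adjusted p up to 0.113). Between the controls 4 of the 8 were higher and 2 lower in MDA-MB-231 cells, led by TSC22D3 (-4.44), ERRFI1 (2.35) and SGK1 (2.06). Of all genes 31.4% passed as higher and 32.7% as lower, 64.1% in either direction.

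With every value centred on the mean of its line, the members varied together to different degrees over the 12 samples, which is a description of samples that share a line, a library and a genotype. Pearson's r was 0.65 between MT1F and MT1X, 0.57 between MT1E and MT1X and 0.40 between MT1E and MT2A. It was 0.15 between MT1E and MT1F, 0.04 between MT1X and MT2A and 0.02 between MT1F and MT2A. MT2A, the most abundant member, had its lowest r with MT1X and MT1F. MT1E and MT2A both had their highest centred value in MDA-MB-231 control sample 1 (0.27 and 0.51). Their r without this sample was not computed. The genes whose centred values were most like the mean of the 4 members were GTF2H4 (r = 0.91), NECAP2 (0.87), RNF146 (0.86), RAB6A (0.85) and SCRN2 (0.85), and none of these 5 was a DEG in either line.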

How the data were processed

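RNA from 12 samples was prepared as stranded poly(A) libraries and sequenced. Per the labels and methods, the authors used Trimmomatic for trimming, STAR for alignment to hg19 and RSEM for FPKM estimates, removed genes of low mean or SD, and deposited log2(FPKM + 1) values. FPKM were recovered by reversing that scale. Read depth is unknown, so the precision of low values could not be given. KO and control were compared per cell line, and control cells between lines, with limma 3.58.1 in R 4.3.3 (no trend), with Benjamini-Hochberg adjustment over 11529 genes, and the change between lines as an interaction over 12 samples. The members and gene lists were chosen with earlier results of these data known. Genes named beside the members were MTF1, SLC30A1, SMARCA4, up to 3 passing genes per list and comparison with the largest change, and the 5 genes most correlated with the members. Replicate numbers in the titles were used as a possible pairing of the MDA-MB-468 samples (correlations of deviations 0.254, 0.161 and 0.119). The p numbers of the sample descriptions gave a different pairing (-0.232 for p26 and 0.029 for p27). Gene models were GENCODE on GRCh37. Alternatives covered scaling, pseudocount, a filter, trend, pooled fits, blocks and left-out samples. The fit was tested on simulated data.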

Additional observations from a re-analysis of the deposited data

How the results depend on the processing

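The number of metallothionein genes called stayed at 0 in MDA-MB-468 KO, 0 in MDA-MB-231 KO and 0 for the difference between lines under every alternative run. Between the controls MT2A and MT1F kept their calls under every alternative, and MT1E is not counted because its MDA-MB-231 level put it in the table. The count of DEGs moved more. In MDA-MB-468 cells it was 247, against 537 in 1 fit of all 12 samples, 0 with the p number of the sample descriptions as a block (2218 genes at an unadjusted p under 0.05), and 0 to 474 with a sample left out (27, 0 and 12 without control 1, 2 and 3, and 474, 0 and 5 without KO 1, 2 and 3). In MDA-MB-231 cells it was 426, against 0 with the replicate number as a block (3126 genes at an unadjusted p under 0.05). With a sample left out it was 99 to 311, lowest without KO 2. The p numbers pair the same samples of this line as the replicate numbers. Deviations within these pairs correlated at -0.05, 0.07 and -0.11 over all genes, which does not settle whether the samples are paired. The MDA-MB-468 p number block also ended the calls of SMARCA4, NQO1, SGK1 and GNAO1 (adjusted p = 0.140), and the MDA-MB-231 block those of SMARCA4, SLC39A8, TXNRD1 and GNAO1 (adjusted p from 0.0520 to 0.0707). Fits with a block or fewer samples have fewer residual degrees of freedom, and the cause was otherwise not tested. With the replicate block in MDA-MB-468 cells the count was 241, and no metallothionein call changed (MT1X adjusted p = 0.0982, MT2A adjusted p = 0.272).

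Signs near 0 reversed. MT1E in MDA-MB-468 cells was -0.0049 with 75th percentile scaling, -0.10 with quantile normalization and -0.13 to 0.066 with a sample left out. With a sample left out, MT1F ranged from -0.26 to 0.10 in MDA-MB-468 and from -0.31 to 0.061 in MDA-MB-231 cells, MT1X from -0.087 to 0.18 and MTF1 from -0.11 to 0.013 in MDA-MB-231 cells, the MT1F difference between lines from -0.15 to 0.25, and the SLC30A1 control difference from -0.063 to 0.16. The MT1E difference between lines was -0.015 with quantile normalization. With a pseudocount of 0.1 the control difference was 7.17 for MT1E. MT2A kept its direction in all comparisons, its difference between lines ranged from 0.26 to 0.58 with a sample left out, lowest without MDA-MB-231 control 1, and the adjusted p of its difference between lines ranged from 0.0678 to 0.359. Read depth, which limits low values such as MT1E in MDA-MB-468 cells, is unknown.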
